A study of Sus scrofa with 14 samples.

Results

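Cytosolic ribosomal protein genes were examined in the small intestine mucosa of piglets whose intestinal loops had been perfused with digested onion. A gene was taken when a probe of the array carried a RefSeq accession of a gene with a symbol starting RPL or RPS followed by a digit, or of RPSA or RPLP0 to RPLP2, and RPS6K kinases were left out. Of the 84 such symbols in the Sscrofa11.1 reference, 37 had a probe that could be named in this way, 21 of the large subunit and 16 of the small subunit, among 3020 genes with a named probe. The remaining 47 symbols were not analysed here. The probe with the highest mean signal stood for a gene.

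A ribosome consists of a small subunit, which decodes the messenger RNA, and a large subunit, which joins the amino acids, and each subunit holds ribosomal RNA together with many proteins, most of them in a single copy. The genes of these proteins are among the most strongly transcribed in any growing cell, and their messenger RNAs share a short pyrimidine-rich start through which their translation is regulated jointly. The intestinal epithelium renews itself within days, and its crypt cells and secretory cells have a high demand for protein synthesis.

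The study asked how an onion digest changes gene expression in the intestine, and the pig data come from the small intestinal segment perfusion (SISP) model, in which loops of the jejunum of an anaesthetised piglet keep their blood supply. Male piglets aged 5 weeks had paired loops between 31% and 58% of the length of the small intestine, each filled with 20 ml and perfused for 6 h. A pair held control digest (Sd) and either digest of yellow onion (YOd; pigs 1, 2 and 4) or digest of white onion (WOd; pigs 5, 6, 7 and 8), so that the Sd group held 7 segments, the YOd group 3 and the WOd group 4. The study states that onion digests were diluted in peptone and the control digest in a saline solution, at another ratio. In comparisons of onion with Sd, onion, diluent and dilution therefore cannot be told apart. Each segment gave 1 mucosal scraping, which can hold epithelium, lamina propria and muscle, and 1 Agilent 1-colour array. Pig 3 was not analysed here.

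The 14 arrays lay on 5 slides. Their 75th percentiles of signal, which were used for scaling, ranged from 385 to 795, and between 545 and 964 of 43603 probes of an array were saturated. Precision is limited by how many arrays there are. Defining markers of enterocytes (APOA1, APOA4, FABP2, ANPEP, MTTP and SLC5A1) were at the end of the scanner range on all 14 arrays. In such scrapings, fewer cells of a type and less RNA per cell cannot be told apart. Values are log2 of the signal over the 75th percentile of the array unless stated, and they are not comparable between probes.

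Most ribosomal protein genes were too bright for the scanner. The chosen probe was saturated on all 14 arrays for 23 of the 37 genes, against 2.58% of all genes with a named probe (78 of 3020). Among them were RPL7, RPL10, RPL10A, RPL11, RPL14, RPL22, RPL23, RPL29, RPL30, RPL32 and RPL35 of the large subunit, RPLP0 and RPLP2 of the stalk that binds translation factors, and RPS3, RPS3A, RPS13, RPS15, RPS18, RPS20, RPS21, RPS23 and RPS28 of the small subunit. For a further 11 genes the chosen probe was saturated on some arrays, from 3 arrays for RPS16 to 13 arrays for RPS12, RPS26 and RPSA. The remaining 3 genes were saturated on no array. They were RPL3, a core protein near the peptidyl transferase centre, and the paralogues RPL26L1 and RPL7L1, which resemble RPL26 and RPL7.

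The genes had 187 probes together, between 1 and 18 per gene with a median of 3. Of these probes, 103 were saturated on all arrays, against 3.60% of the 6686 named probes, 54 on some and 30 on none. Every probe was saturated on all arrays for 9 genes, among them RPL35, RPLP2, RPS3, RPS3A and RPS28, so that the data hold only a lower bound for them on every array. On the dim side, 186 of the 187 probes were called well above background on every array. Choosing the brightest probe of a gene favours saturated probes for every gene alike.

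**Figure D1:**
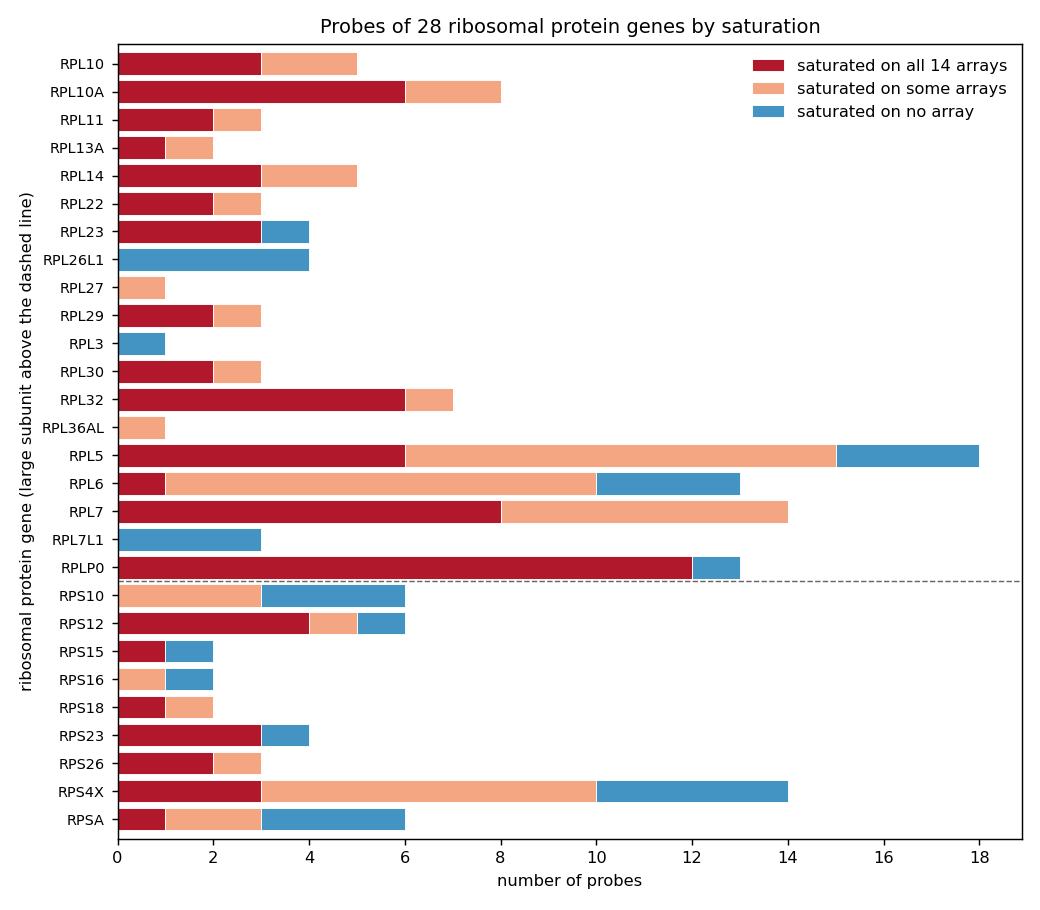
Number of probes (x axis) of each of the 28 ribosomal protein genes (y axis) that had a probe not saturated on all 14 arrays, coloured by whether Feature Extraction marked the probe as saturated on all arrays, on some or on none. Red covers 72 of the 156 probes shown, and blue appears for 14 genes.

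The median pixel intensity of the probes saturated on all arrays lay between 65528 and 65529, the end of the scanner range, on every array. Their processed signal carries the background and detrending corrections that were applied afterwards. Before scaling, the SD of their log2 signal over the 14 arrays had a median of 0.0399. After scaling it was 0.292, close to the SD of 0.288 of log2 of the 75th percentiles themselves.

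For these 23 genes the scaled log2 ratio of onion to Sd followed the scaling factors within each pig. The median ratio was 0.60 in pig 4, where the 75th percentile of the Sd array was 795 and that of the YOd array was 515, a log2 ratio of 0.62. It was 0.16 in pig 1 and 0.16 in pig 2, against 0.18 and 0.12 for the 75th percentiles. In the WOd pigs 5, 6, 7 and 8 it was -0.11, -0.05, 0.08 and 0.20, against -0.09, -0.05, 0.08 and 0.19. The largest gap between a median and the log2 ratio of the scaling factors was 0.0351. The pairwise correlation of these genes over the 7 pigs had a median r of 0.950 with scaling and 0.0533 without. Both are descriptions over 7 pigs that share arrays and scaling factors. No fold change is given for these genes, since both segments were at the end of the scanner range.

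**Figure D2:**
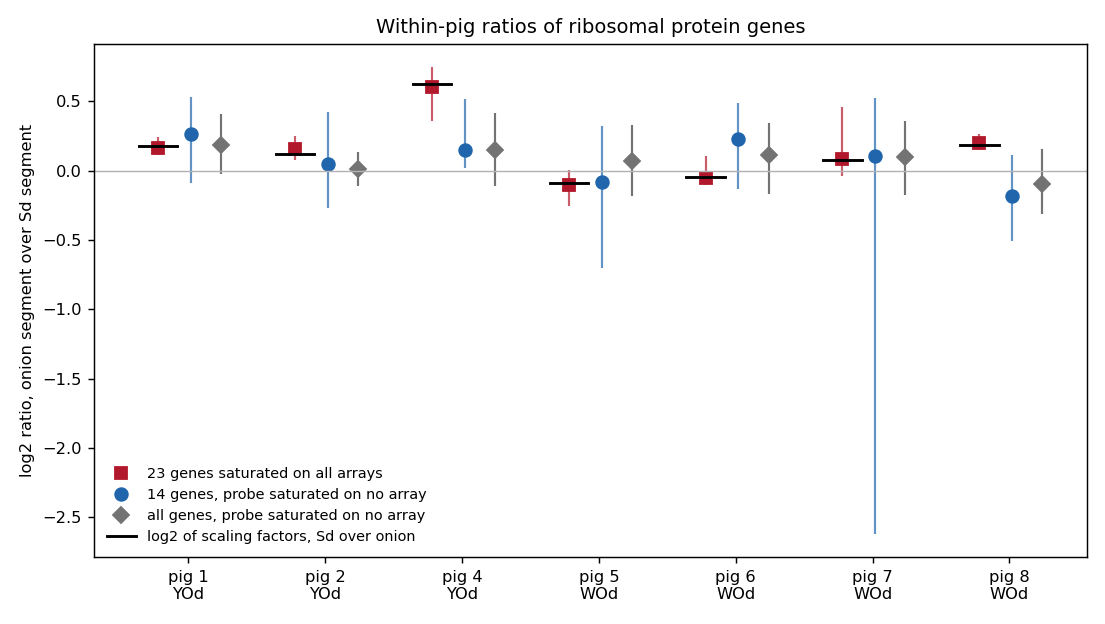
Log2 ratio of onion to Sd (y axis) in each pig (x axis). Red squares are the medians of the 23 genes saturated on all arrays and blue circles those of the 14 genes with a never saturated probe, with lines from the lowest to the highest gene; grey diamonds are the medians of all genes with lines over the quartiles, and black bars are the log2 ratio of the scaling factors. The red squares lie on the black bars, to within 0.0351, while the blue circles run from -0.18 in pig 8 to 0.27 in pig 1.

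In the comparisons of digests with the brightest probes, a gene was taken as affected when its unadjusted p was below 0.05 and its change larger than 1.5-fold. The 23 genes saturated on all arrays could not show a change. The counts therefore speak at most for the other 14 genes (11 saturated on some arrays and 3 on none). Among the 11, RPS12, RPS26 and RPSA were saturated on 13 arrays, RPL5, RPL27 and RPS10 on 12 and RPS4X on 11. Such probes leave little room for a change. The others of the 11 were saturated on 3 to 9 arrays. In YOd/Sd 0 of these 14 were affected, where 4.50% of all 2464 genes tested by limma were. In WOd/Sd 0 of 14 were affected (background 1.18%), in onion/Sd over the 7 pigs 0 of 14 (background 1.22%), and for YOd/Sd minus WOd/Sd, the difference of the effects of both onions, 0 of 14 (background 3.52%). An unadjusted p from limma below 0.05 was found for 0 of the 14 in each of these comparisons. Among all genes this held for 269 of 2464 in YOd/Sd and 64 of 2467 in WOd/Sd. In onion/Sd it held for 168 of 2453 and for the difference of effects for 108 of 2558. At these background shares, a count of 0 of 14 does not set the genes apart from all genes. The median log2 difference of all 37 genes in YOd/Sd was 0.31 with the 75th percentile, -0.00304 without scaling between arrays and 0.00552 with quantile normalization. The median of all genes was 0.14, -0.16 and 0.05 in the same order. Since most of the 37 probes were at the end of the scanner range, these medians follow the scaling and say little about expression. In WOd/Sd and in onion/Sd the medians of the 37 genes were 0.04 and 0.15, with 0.04 and 0.09 for all genes.

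By the mean of all probes in place of the brightest, RPS16, a small subunit protein that contacts the transfer RNA, was affected in YOd/Sd with a log2 difference of 0.74 (standard error 0.22, limma raw p 0.0153, adjusted p 0.429). That mean rested on 1 of its 2 probes on the YOd array of pig 2, where the spot of the dimmer probe was marked as an outlier, and the ratio of pig 2 was 1.35 against 0.47 in pig 1 and 0.39 in pig 4. The brighter probe alone had a ratio of 0.05 in pig 2 and a YOd/Sd difference of 0.35 (standard error 0.16), and was not affected. The mean of all probes gave RPS16 as affected for the difference of effects too (0.84, standard error 0.28, limma adjusted p 0.889). In the WOd pigs 5, 6, 7 and 8 the ratios of that mean were 0.11, 0.17, -0.37 and -0.33.

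For 14 genes a probe was saturated on no array, so that their levels could be followed: RPL3, RPL5, RPL6, RPL23, RPLP0, RPL7L1 and RPL26L1 of the large subunit and RPS4X, RPS10, RPS12, RPS15, RPS16, RPS23 and RPSA of the small subunit. Some of these probes were still bright. The mean signal was 54193 for RPS4X and 48012 for RPL5, beside 55372 for the dimmest probe saturated on all arrays. Whether changes of such bright probes are reduced was not tested. Of these genes, 0 of 14 were affected in YOd/Sd (background 4.49% of 2362 genes), WOd/Sd (background 1.44%), onion/Sd (background 1.23%) and the difference of effects (background 3.66%). Unadjusted p-values of limma below 0.05 were found for 0 of the 14 in each. Among all genes they were found for 266 of 2362 in YOd/Sd and 63 of 2365 in WOd/Sd. In onion/Sd the count was 153 of 2351 and for the difference of effects 104 of 2456. Here too, a count of 0 of 14 does not set the genes apart at such shares. The median log2 difference of the 14 was 0.18 in YOd/Sd, -0.01 in WOd/Sd, 0.05 in onion/Sd and 0.20 for the difference of effects, beside 0.12, 0.04, 0.07 and 0.08 for all genes. In YOd/Sd 13 of 14 lay above 0, but 8 of 14 with quantile normalization and 2 of 14 without scaling, where the median of all genes was -0.18. Relative to all genes the 14 lay at 0.06 with the 75th percentile, 0.06 without scaling and -0.01 with quantile normalization. In onion/Sd 10 of 14 lay above 0 with the 75th percentile, 6 with quantile normalization and 2 without scaling. All 30 never saturated probes of the genes, fitted together with every probe of the array, gave 0 affected probes in YOd/Sd (background 4.92%), WOd/Sd (background 1.30%), onion/Sd (background 0.857%) and the difference of effects (background 5.65%).

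The 95% intervals of limma rest on the spread between pigs with the scaling used here. They do not cover a change of scaling, which moved differences such as those of RPS23 and RPLP0 given below. Nor do they cover a reduction of changes on bright probes such as those of RPS4X and RPL5, which was not tested. They bound what could have been missed only within these limits. In YOd/Sd the intervals of 14 of 14 genes lay within a 2-fold change and those of 9 within a 1.5-fold change. In WOd/Sd 12 lay within a 2-fold and 11 within a 1.5-fold change, and in onion/Sd 13 and 12. For the difference of effects 11 lay within a 2-fold and 1 within a 1.5-fold change. The genes outside a 2-fold change were RPL23 and RPS12 in WOd/Sd, RPS12 in onion/Sd, and RPL23, RPS12 and RPS16 in the difference of effects.

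**Figure D3:**
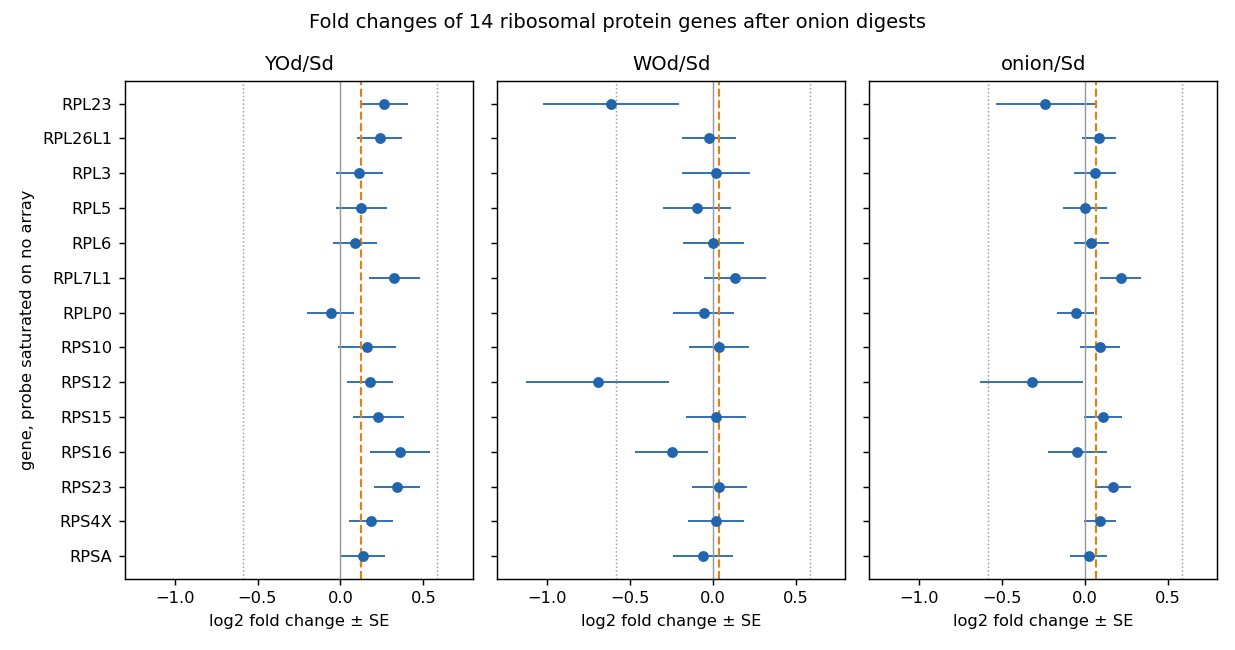
Log2 fold change (x axis, point, with its standard error as a line) of the 14 genes with a never saturated probe (y axis) in YOd/Sd (3 pigs), WOd/Sd (4 pigs) and onion/Sd (7 pigs). Dotted lines mark a 1.5-fold change, the dashed orange line the median of all genes tested. Most points lie near the orange line, and RPS12 and RPL23 stand apart in WOd/Sd at -0.69 and -0.61 with standard errors of 0.43 and 0.41.

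Among proteins of the decoding subunit, RPS23, which lies at the decoding centre and takes part in its accuracy, had the smallest unadjusted p of the 14 genes in YOd/Sd. Its log2 signal in Sd had a lowest value of 5.64, a median of 6.11 and a highest value of 6.58. It was 6.72, 5.87 and 6.40 in YOd (pigs 1, 2 and 4) and 6.46, 5.84, 5.92 and 6.36 in WOd (pigs 5, 6, 7 and 8). The YOd segment was above the Sd segment in each of its 3 pigs and the groups overlapped, with a log2 difference of 0.34 (standard error 0.14, 95% interval -0.001 to 0.68, limma adjusted p 0.433). In WOd/Sd the difference was 0.04 (standard error 0.17), with 2 pigs up and 2 down. Without scaling the YOd/Sd difference was 0.03.

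RPS16 had Sd values on its never saturated probe from 2.97 over a median of 3.74 to 4.64. YOd values were 3.68 in pig 1 and 4.51 in pig 4, since the spot of pig 2 was left out, and WOd values were 3.19, 3.86, 2.82 and 4.13. Its differences were 0.36 (standard error 0.18) in YOd/Sd over 2 pigs and -0.25 (standard error 0.22) in WOd/Sd, both within the spread between pigs. The ratios of WOd over Sd were 0.22, 0.10, -0.80 and -0.51 in pigs 5, 6, 7 and 8.

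RPS15, a protein of the head of the small subunit, had Sd values from 5.16 over 5.95 to 6.36. YOd values were 6.75, 5.51 and 6.28 and WOd values were 6.47, 5.41, 5.58 and 5.92. The onion segment was above Sd in 5 of 7 pigs, with a log2 difference of 0.11 (standard error 0.11) in onion/Sd. RPS10, which lies near the entry of the messenger RNA, had Sd values from 4.89 over 5.69 to 5.85, YOd values of 6.25, 5.35 and 5.79, and WOd values of 6.01, 5.14, 5.35 and 5.63. Its largest within-pig ratio was 0.53, in pig 1, and its difference in WOd/Sd was 0.04 (standard error 0.18).

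RPSA, also known as the laminin receptor precursor, had Sd values from 5.18 over 6.15 to 6.30, YOd values of 6.41, 5.92 and 6.44, and WOd values of 5.91, 5.57, 5.64 and 6.09. Its differences were 0.13 in YOd/Sd (standard error 0.14) and -0.06 in WOd/Sd (standard error 0.18), and without scaling the former was -0.17. RPS4X, the X-linked copy of a small subunit protein, had Sd values from 6.40 over 6.61 to 6.81, YOd values of 6.86, 6.67 and 6.83 and WOd values of 6.87, 6.28, 6.86 and 6.64. This probe ranged over 1.51-fold on the 14 arrays, at signals of 39395 to 76411, near the end of the scanner range, while 2 dimmer never saturated probes of RPS4X differed between slides by 5.01-fold and 18.8-fold.

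In the large subunit, RPL3 had Sd values from 4.81 over 5.98 to 6.46. Its YOd values were 6.27, 5.68 and 6.11 and its WOd values were 6.00, 5.30, 5.72 and 6.01, with a difference of 0.06 (standard error 0.12) in onion/Sd. RPL5, which carries the smallest ribosomal RNA into the large subunit and binds MDM2 when free, had Sd values from 5.51 over 6.41 to 7.32. Its YOd values were 6.57, 6.39 and 6.75, its WOd values were 6.62, 5.71, 6.60 and 6.61, and its difference in onion/Sd was 0.001 (standard error 0.13). RPL6 had Sd values from 5.20 over 6.22 to 6.57, YOd values of 6.42, 5.97 and 6.32, WOd values of 6.34, 5.50, 6.38 and 5.97, and a difference in YOd/Sd of 0.09 (standard error 0.13), which was -0.22 without scaling. For each of these genes the onion and Sd segments overlapped.

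RPLP0, the base of the acidic stalk that recruits elongation factors and a frequent reference gene, had the lowest difference in YOd/Sd. Sd values ran from 4.88 over 5.92 to 6.25, YOd values were 6.21, 5.32 and 5.96, and WOd values were 5.88, 5.27, 5.60 and 5.89. Its log2 differences in YOd/Sd, WOd/Sd and onion/Sd were -0.06, -0.05 and -0.06, with standard errors of 0.14, 0.18 and 0.11, and without scaling -0.37, -0.08 and -0.21. The groups overlapped throughout.

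Paralogues by symbol were RPL7L1, RPL26L1 and RPL36AL, beside RPS4X. RPL7L1, found in precursors of the large subunit, had Sd values from 5.69 over 5.82 to 6.75, YOd values of 6.91, 5.75 and 6.24 and WOd values of 6.63, 6.12, 6.21 and 6.08. Its difference in onion/Sd was 0.22, the largest of the 14 genes (standard error 0.12, limma adjusted p 0.739), and the onion segment was above Sd in 5 of 7 pigs. Without scaling this difference was 0.07. RPL26L1 had Sd values from 3.60 over 3.89 to 4.36, YOd values of 4.09, 3.95 and 4.15 and WOd values of 4.28, 3.78, 4.09 and 3.95, with a difference of 0.09 (standard error 0.10) in onion/Sd. RPL36AL, a near copy of RPL36A, had 1 probe, saturated on 7 arrays, so that its difference in onion/Sd of 0.21 (standard error 0.11, limma adjusted p 0.658) rests on partly saturated values. Probes of such near-identical copies can also bind the other copy, which was not tested.

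Among the brightest probes with the largest or smallest differences, several were saturated on some arrays. In YOd/Sd RPL13A, known from the interferon-gamma response, differed by 0.36 (standard error 0.16, 8 arrays saturated) and RPL27 by 0.19 (standard error 0.16, 12 arrays saturated), and in WOd/Sd RPL27 differed by 0.16 (standard error 0.14). RPLP2, RPL32 and RPS18, which the same rule named, were saturated on all arrays. Probes of a gene did not always give the same sign. Of 150 other probes, 15 probes of 11 genes (RPL5, RPL6, RPL11, RPL14, RPL23, RPLP0, RPS4X, RPS10, RPS12, RPS16 and RPSA) had a negative difference in onion/Sd where the brightest probe had a positive one. Of these 15 probes, 0 were saturated on all arrays, 4 on some and 11 on none. Of the 15, 9 probes of 7 genes were lower on slides 2 and 4 than on the other slides without overlap, and pig 7 had its arrays on slides 5 and 4. Without pig 7 the mean ratio was below 0 for 3 of these 9 probes and for 8 of the 15. The lowest difference was -0.65 for a probe of RPS4X (standard error 0.45, limma adjusted p 0.860), with a ratio of -4.03 in pig 7 and a mean of -0.09 over the other 6 pigs.

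Within a pig, the 14 genes moved partly together. The median ratio of onion over Sd was 0.27, 0.05 and 0.15 in the YOd pigs 1, 2 and 4, while pigs 5, 6, 7 and 8 had -0.08, 0.23, 0.10 and -0.18. The medians of all genes were 0.19, 0.01, 0.15, 0.07, 0.11, 0.10 and -0.10 in the same order. In pig 1, 13 of 14 genes were higher in the onion segment (71.2% of all genes), in pig 2 9 of 13 (52.3%), and in pig 4 14 of 14 (65.7%) with scaling but 0 of 14 without (12.8%). In the WOd pigs 5 of 14 were higher in pig 5 (56.9% of all genes), 10 in pig 6 (61.5%), 8 in pig 7 (58.9%) and 1 in pig 8 (38.3%). Without scaling, 10 of 14 were higher in pig 1 (50.6% of all genes) and 5 of 13 in pig 2 (27.7%). In pigs 5, 6, 7 and 8 these counts were 8, 11, 7 and 0 of 14, beside 65.3%, 65.9%, 52.7% and 23.1% of all genes. More of the genes were thus higher than lower in the onion segment of pigs 1 and 6 and fewer in that of pig 8 both with and without scaling, and in each of these pigs the median of all genes lay on the same side of 0.

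Over the 7 pigs, the ratios of the 13 genes with all values had a median pairwise r of 0.40, against 0.0685 for 2298 genes with all values. The 2298 include genes at the floor for dim signals on some arrays, while the 13 lay above it on all. The 2 values of r are therefore not fully comparable. Without RPL23 and RPS12, which were left out for a split by slide seen in these data, the median was 0.527. No genes were left out of the 2298 in this way. Without scaling the medians were 0.565 for the 13 genes and 0.313 for all genes. These correlations are descriptions over 7 pigs. The points share arrays and, with scaling, the scaling factor of the array.

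Differences between pigs were larger than those between the segments of a pig. Over 13 genes with values on all arrays, the mean absolute log2 difference between the 2 segments of a pig had a median of 0.24 (0.28 for 2078 genes), and that between the Sd segments of different pigs, over 21 pairs, had a median of 0.50 (0.47 for all genes). By the F test of limma over the pig coefficients with Benjamini-Hochberg adjustment, 12 of 14 genes differed between pigs on their never saturated probe, against 44.0% of 2351 genes. RPL26L1 (adjusted p 0.210) and RPS4X (adjusted p 0.280) did not pass. RPS15 had the largest F (9.75, limma adjusted p 0.00755), followed by RPL23 (7.78) and RPS12 (7.57), whose levels split by slide. The 12 became 6 without pig 6, 8 without pig 1 and between 9 and 12 without another pig, and 9 without scaling. With the brightest probes 9 of 37 passed, against 43.7% of all genes. That number was 1 without pig 1, 1 without pig 5, 2 without pig 2, 5 without pig 6, 5 without pig 8 and 24 without pig 4. The shares of all genes were not counted under the settings that changed the 12 or the 9. These moves therefore cannot be compared with those of all genes. Of the 9, 5 (RPL7, RPL10A, RPLP0, RPLP2 and RPS20) were saturated on all arrays. Their F follows the scaling factors and could not show a difference in expression. RPL3 (F 6.56), RPL7L1 (5.79) and RPL6 (5.58) led the 9.

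Pig 6 had low levels of many of these genes. Both of its arrays lay below the other 12 arrays for 8 of 13 genes, against 12.3% of 2078 genes, and without scaling for 9 of 13 against 12.2%. The 8 were RPL3, RPL5, RPL6, RPLP0, RPS4X, RPS10, RPS15 and RPSA. RPL5 was 5.51 in the Sd segment and 5.71 in the WOd segment of pig 6 and between 6.32 and 7.32 on the other arrays, 1.99-fold below their median. RPL3 was 4.81 and 5.30 against 5.49 to 6.46, 1.93-fold below the median, and RPS4X was 6.40 and 6.28 against 6.47 to 6.87, 1.32-fold below it. RPL23, RPS12, RPL7L1, RPL26L1 and RPS23 did not lie below all other arrays. The median deviation of pig 6 from the mean of the pigs was -0.58 over the 13 genes and -0.19 over all genes.

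Other lists of genes were compared with this. In pig 6 the median deviation was -0.31 for 10 genes of ribosome biogenesis, -0.49 for 7 mitochondrial ribosomal proteins, -0.38 for 3 aminoacyl-tRNA synthetases or partners and -0.21 for 14 translation factors. Among markers of cell types it was -1.07 for 4 of 15 lymphocyte markers (CD3E, CD3G, CD2 and CD8A), -0.40 for 8 of 21 crypt markers, -0.49 for 6 of 11 enteroendocrine markers, -0.49 for 2 of 7 goblet markers, -0.03 for 4 of 17 enterocyte markers and -0.04 for 4 of 10 smooth muscle markers. Crypt markers were lower in pig 1 (-0.48), and enteroendocrine and smooth muscle markers in pig 7 (-0.58 and -0.80). The part of these lists in the low levels of pig 6 was not tested. Pigs 6 and 8 shared slide 3, and the median deviation of pig 8 was 0.18 over the 13 genes. With 1 pig, animal and preparation cannot be told apart.

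**Figure D4:**
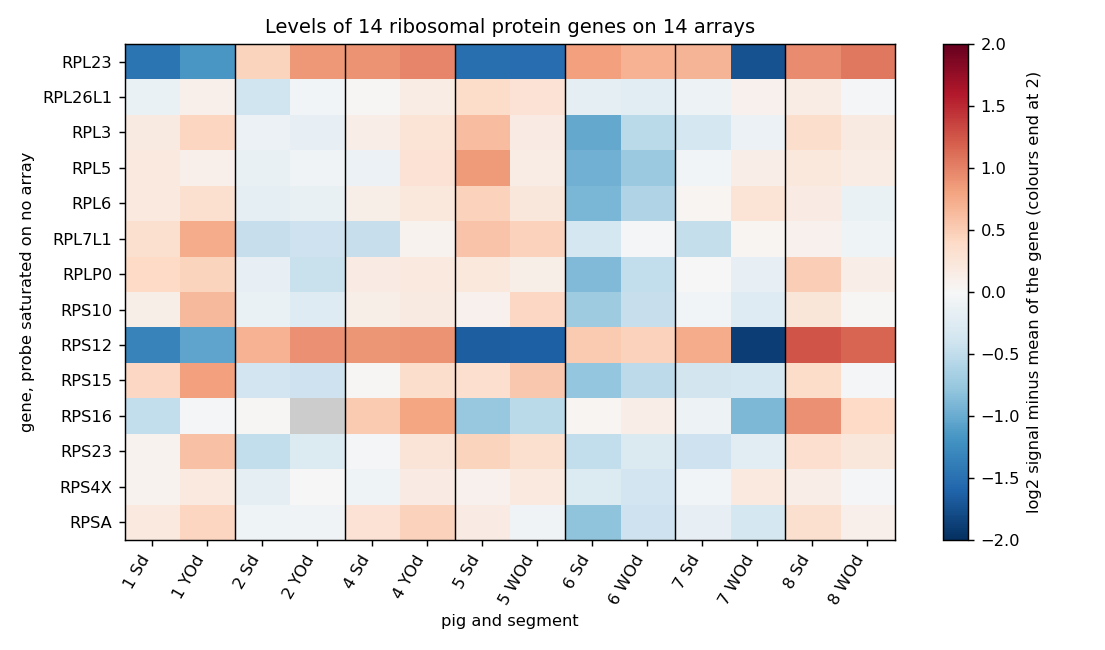
Log2 signal minus the mean of the gene (colour, red above and blue below) for the 14 genes with a never saturated probe (y axis) on the Sd and onion arrays of each pig (x axis). The grey cell is the spot of RPS16 that was left out. Both columns of pig 6 are blue for most genes, and RPL23 and RPS12 are dark blue in pig 1, pig 5 and the WOd segment of pig 7.

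Some probes of the genes split by slide rather than by digest. The split was noticed in the values, so it is given with no test. Slide 2 held both arrays of pig 1, slide 4 held both arrays of pig 5 and the WOd array of pig 7, and slides 1, 3 and 5 held the other 9 arrays. Of the 30 never saturated probes, 5 were lower on all 5 arrays of slides 2 and 4 than on any other array, against 4.06% of 25890 never saturated probes of the array, and 0 were higher on all 5 (1.29% of all). The 5 belong to RPL23, RPS12, RPL6 and, with 2 probes, RPS4X, and all 5 were lower by over 2-fold (3.16% of all).

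RPL23, a large subunit protein that binds MDM2 when free, was between 3.30 and 3.88 on slides 2 and 4 and between 5.49 and 6.10 elsewhere, a 4.93-fold difference of the means. RPS12 was between 2.996 and 3.82 against 5.33 to 6.14, a 5.09-fold difference. By group, RPL23 ran from 3.53 over a median of 5.72 to 5.98 in Sd, was 3.88, 5.91 and 6.02 in YOd and 3.52, 5.74, 3.30 and 6.10 in WOd. RPS12 ran from 3.22 over 5.56 to 6.14 in Sd, was 3.82, 5.79 and 5.77 in YOd and 3.24, 5.33, 2.996 and 6.04 in WOd. Low and high values occurred in each group, and the groups overlapped. A probe of RPS4X was between -2.28 and -1.42 against 2.01 to 3.03, an 18.8-fold difference, another was 5.01-fold lower, and a probe of RPL6 was 2.97-fold lower. The remaining 2 never saturated probes of RPS4X and 2 of RPL6 overlapped between the slides, so the probes of a gene disagreed. Of the 54 probes saturated on some arrays, 7 were lower on slides 2 and 4 without overlap (5.49% of all 583 such probes) and 6 were higher without overlap (5.83% of all). Among the 7 were probes of RPL14, RPSA and RPL6, whose measured differences of the means were 3.50-fold, 2.32-fold and 2.31-fold and, with 2, 4 and 1 arrays at the end of the scanner range, are not exact.

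**Figure D5:**
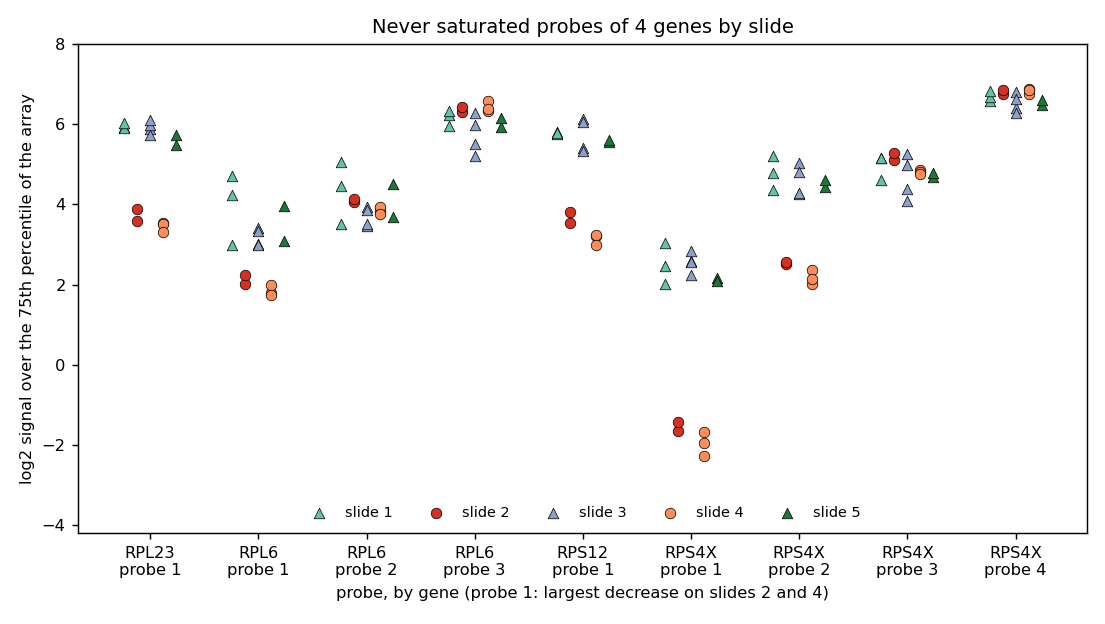
Log2 signal over the 75th percentile of the array (y axis) for every never saturated probe of RPL23, RPL6, RPS12 and RPS4X (x axis), with 1 point per array. Circles are the 5 arrays of slides 2 and 4 and triangles the 9 arrays of slides 1, 3 and 5. Circles lie apart below the triangles for 5 of the 9 probes, by up to 18.8-fold, and among them for the others.

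This split touched the comparison of digests in pig 7, whose Sd array lay on slide 5 and whose WOd array lay on slide 4. The log2 ratio of WOd over Sd in pig 7 was -2.42 for RPL23 and -2.62 for RPS12. In pigs 5, 6 and 8 it was -0.01, -0.13 and 0.11 for RPL23 and 0.01, -0.07 and -0.09 for RPS12. The differences of -0.61 and -0.69 in WOd/Sd became -0.01 and -0.05 without pig 7. The never saturated probe of RPS16 ran from 2.82 to 3.68 on slides 2 and 4 and overlapped narrowly with 3.63 to 4.64 elsewhere. Its ratio in pig 7 was -0.80, and its difference of -0.25 in WOd/Sd became -0.06 without pig 7. Pig 2 had its arrays on slides 5 and 1. RPL23 was 5.49 and 5.72 on slide 5 against 5.91 to 6.02 on slide 1. RPS12 was 5.56 and 5.62 against 5.75 to 5.79. These gaps were smaller than those of slides 2 and 4, with slide 5 the lower. Slide 5, which held the Sd arrays of pigs 2 and 7, was scanned on another date than the other slides. In pigs 2 and 7 digest, slide and scan date therefore cannot be told apart. For the 5 pigs with both arrays on 1 slide, slide and pig cannot be told apart in the differences between pigs.

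Of the related lists, 0 genes were affected in any of the 4 comparisons, where the shares of all genes were 4.50%, 1.18%, 1.22% and 3.52%, too low for lists of this length to be set apart by a count of 0. The lists held 15 named translation factors, among them TPT1 and RACK1, saturated on all arrays like most ribosomal protein genes, 10 genes of ribosome biogenesis, 3 aminoacyl-tRNA synthetases or partners and 7 mitochondrial ribosomal proteins. Their median log2 differences in YOd/Sd were 0.20, 0.07, 0.15 and 0.13 in this order, and in WOd/Sd 0.08, 0.18, 0.05 and 0.09. Beside 0.31 and 0.04 for the brightest probes and 0.18 and -0.01 for the never saturated probes of the ribosomal protein genes, these are descriptions with no test. Among the lists of cell markers, 2 of 7 enteroendocrine genes tested, the hormones CCK and MLN, were affected in YOd/Sd (log2 differences 0.92 and 1.82, limma adjusted p 0.391; background 4.50%). Their ratios were 1.55 and 3.30 in pig 1 and 1.07 and 2.17 in pig 4, but 0.12 and -0.01 in pig 2. In the WOd pigs 5, 6, 7 and 8 the ratios of MLN were 2.26, 0.14, 0.08 and 0.64. Those of CCK were 0.20, 0.54, 0.22 and -0.11. MLN was also affected in onion/Sd (1.23, limma adjusted p 0.635). No marker was affected in WOd/Sd or for the difference of effects.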

How the data were processed

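Mucosal scrapings of 7 pigs were measured on 14 Agilent 1-colour arrays. The authors deposited scanner files of Feature Extraction with the processed signal, an intensity after background subtraction and detrending, and flags for outlier and saturated spots. They also deposited a table of log2 values, whose normalization is not named in the sources used here. It served as an alternative.

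Outlier spots were left out, spots of a probe were averaged, and probe signals were scaled to each array's 75th percentile, floored at the pooled 40th percentile (log2 -4.43) and taken to log2. RefSeq accessions named 6686 of 43603 probes through the table of Sscrofa11.1, used for naming alone. Over all genes, limma 3.58.1 (R 4.3.3) was run for each comparison with the pig as a block, and p-values were adjusted by Benjamini-Hochberg over all genes tested. A gene was tested when it exceeded the floor on at least as many arrays as the onion group of the comparison had (the smaller one for the difference of effects). The pairing comes from the animal, and after subtraction of the group means r between the 2 arrays of a pig lay between 0.488 and 0.777 (2078 genes). The fit was tested on simulated data. Other steps ran in Python 3.11.15.

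Genes were named when affected, among the 3 largest differences in a direction or the 3 largest F between pigs, saturated on all arrays, paralogues by symbol, or with probes of opposite sign. The same rule was applied to the 14 genes with a never saturated probe. The genes and lists were chosen with earlier results of these data known. P-values of the digest comparisons rest on how far the differences of onion and Sd segments vary between these pigs. Those of the F test between pigs rest on the spread between the 2 segments of a pig. Alternatives changed the scaling, the background correction, the floor, the filter, the probe, the block and the pigs used. Those that pair the never saturated probe with another setting were chosen after seeing the data. Values of 1 gene are not reported here.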

Additional observations from a re-analysis of the deposited data

Results flagged for a closer look

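Over 60 groups of 4 to 7 values, 9 held a value far from the others by Dixon's test, where chance gives about 1 in 20. All are on never saturated probes except the last.

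The log2 ratio of WOd over Sd in pig 7 stood apart for RPL23 at -2.42, both among the 7 pigs and among the 4 WOd pigs, and for RPS12 at -2.62, likewise in both. The WOd array of pig 7 lay on slide 4 and its Sd array on slide 5. Pig 6 stood apart for RPL5 in WOd at 5.71, for RPS10 in Sd at 4.89 and for RPSA in Sd at 5.18. RPSA also stood apart by its ratio in pig 6 among the WOd pigs, at 0.39. The median ratio of the genes saturated on all arrays stood apart in pig 4 at 0.60, beside a log2 ratio of the scaling factors of 0.62.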

How the results depend on the processing

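With the brightest probes, 0 affected genes held in each comparison under every alternative except the mean of all probes, which gave 1 in YOd/Sd and 1 for the difference of effects (RPS16). For RPS16 that mean rested on 1 of its 2 probes on the YOd array of pig 2. The fit with no replicate block, in place of the pairing by pig, gave 0 in the 4 comparisons too. The medians stayed at 0.31 in YOd/Sd, 0.04 in WOd/Sd and 0.15 in onion/Sd. This was fixed by the design, since every pig gave 1 Sd and 1 onion array, and says nothing about the pairing. The number that differed between pigs, 9, was 3 with quantile normalization, 1 with no scaling, 2 with no floor, 18 with the floor at the 50th percentile, 4 with the mean of all probes, 3 with all probes in the fit, 23 with the authors' processed values and 2 with the pigs that have both arrays on 1 slide. It ran from 1 to 24 when a pig was left out, and on the never saturated probes from 6 to 12. The shares of all genes that differed between pigs under these settings were not counted.

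The median of YOd/Sd moved to 0.00552 with quantile normalization and to -0.00304 with no scaling, and on the never saturated probes to 0.0470 and -0.127. That of onion/Sd moved on the never saturated probes to -0.0808 and -0.0995. Leaving out a pig gave 0.17 to 0.38 in YOd/Sd, -0.12 to 0.10 in WOd/Sd and -0.01 to 0.19 in onion/Sd, the never saturated probes included. The cause of these moves was not tested, except that scaling sets the values of probes saturated on all arrays by construction. For the 14 genes, 0 passed the thresholds under the alternatives that keep the never saturated probe, but without pig 7 the WOd/Sd differences of RPL23 and RPS12 went from -0.61 and -0.69 to -0.01 and -0.05. Saturation is a limit of its own: for 23 genes the brightest probe gives a bound on every array, and for 9 every probe does.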
